A study of Homo sapiens with 10 samples.

Results

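The 10 genes described here are established transcriptional targets of the coactivator YAP and its DNA-binding partners of the TEAD family: CTGF, CYR61, ANKRD1, AMOTL1, AMOTL2, AJUBA, THBS1, LATS2, AXL and NT5E. They were taken by gene symbol from the deposited expression table, under the older symbols CTGF and CYR61 (now CCN2 and CCN1). All 10 were among the 20379 genes of the table. All 10 also passed the filter for testing, a mean of at least 1 FPKM (fragments scaled by transcript length and library size) over the libraries, which 12352 genes passed. Poly(A) RNA was sequenced from 2 established human glioblastoma lines, DBTRG-05MG and U87, cultured with 1 mM dibutyryl cAMP (dbcAMP, a cell-permeable analogue of the second messenger cyclic AMP). Each line gave 1 library at 0 h and 1 after 6, 12, 24 and 48 h of dbcAMP, so there were 10 libraries and no replicate of any line and time. No library came from cells kept without dbcAMP for the later times. Effects of dbcAMP and of time in culture therefore cannot be told apart, and each line stands only for itself.

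In the Hippo pathway, the kinases MST1 and MST2 (genes STK4 and STK3) activate the kinases LATS1 and LATS2, which phosphorylate YAP and its relative TAZ (gene WWTR1) and keep them in the cytoplasm. When the kinases are quiet, YAP and TAZ enter the nucleus, bind TEAD proteins and switch on genes for matrix, adhesion and growth. Cyclic AMP, through protein kinase A, is a known upstream signal of LATS, and several of the target genes feed back on the pathway. The genes are described below by the role of their products: secreted proteins, a nuclear cofactor, feedback regulators, and proteins of the cell surface. Lists of 5 values give the libraries at 0, 6, 12, 24 and 48 h in that order.

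A TEAD protein binds DNA at a short core with the letters GGAATG, which read CATTCC on the opposite strand. The 250 bases upstream of the annotated starts were available from RefSeq (GRCh38.p14) for 9 of the 10 genes, in 12 windows, and not for CYR61. The core, on either strand, was found in 6 of the 12 windows, belonging to 6 genes. Of 35116 human promoter windows of the same length, 11.9% held at least 1 core, 0.94% at least 2 and 0.0826% at least 3. CTGF had 3 cores, starting 169, 104 and 95 bases before the start. Its whole window (chr6:131951373-131951622, minus strand) is shown because it holds the most copies, with the cores in capitals:
CTGF: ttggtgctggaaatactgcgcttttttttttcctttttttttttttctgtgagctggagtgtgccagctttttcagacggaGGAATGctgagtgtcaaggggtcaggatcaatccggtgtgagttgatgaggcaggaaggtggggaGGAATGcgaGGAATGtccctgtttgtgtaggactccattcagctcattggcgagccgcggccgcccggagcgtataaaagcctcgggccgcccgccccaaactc
ANKRD1 had 2 cores, 220 and 128 bases before its start, THBS1 had 1 at 46 bases and AMOTL2 had 1 at 69 bases before the second of its annotated starts. The 30 bases around each of these 4 cores are shown (minus strand chr10:90921290-90921319 and chr10:90921198-90921227, plus strand chr15:39581021-39581050, minus strand chr3:134374499-134374528), because these genes, with CTGF and CYR61, differed most between 48 and 0 h in DBTRG-05MG:
ANKRD1, first core: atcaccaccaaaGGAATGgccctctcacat
ANKRD1, second core: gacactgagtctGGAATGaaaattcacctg
THBS1: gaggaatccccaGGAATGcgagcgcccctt
AMOTL2, second start: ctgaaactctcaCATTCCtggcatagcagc
AJUBA and AXL each had 1 core upstream of the second of their starts, at 59 and 212 bases. The full cyclic AMP response element TGACGTCA was in none of the 12 windows and in 1.65% of all promoters. Its first 5 letters, TGACG, were in windows of AMOTL1, LATS2, AXL and NT5E and in 21.2% of all promoters. The AP-1 letters TGANTCA were in the window of ANKRD1 and in 6.57% of all promoters, and the CArG box bound by SRF was in none of the 12 windows and in 1.16% of all. All motifs were searched on both strands, TGACG lies within TGACGTCA, and a match of letters was not tested as a binding site.

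In DBTRG-05MG, 9 of the 10 target genes were lower at 48 h than at 0 h, where 47.7% of all genes tested were. The difference was small for LATS2 and AMOTL1, and NT5E was higher at every later time. CTGF, CYR61, THBS1, AMOTL2, LATS2 and AXL were highest at 6 h in that line. In U87, 4 of the 10 (CTGF, CYR61, THBS1 and AMOTL2) were at least 2-fold higher at 6 h than at 0 h, where 2.73% of all genes were. The genes took separate courses afterwards. The plot of levels by hour shows both patterns.

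**Figure D1:**
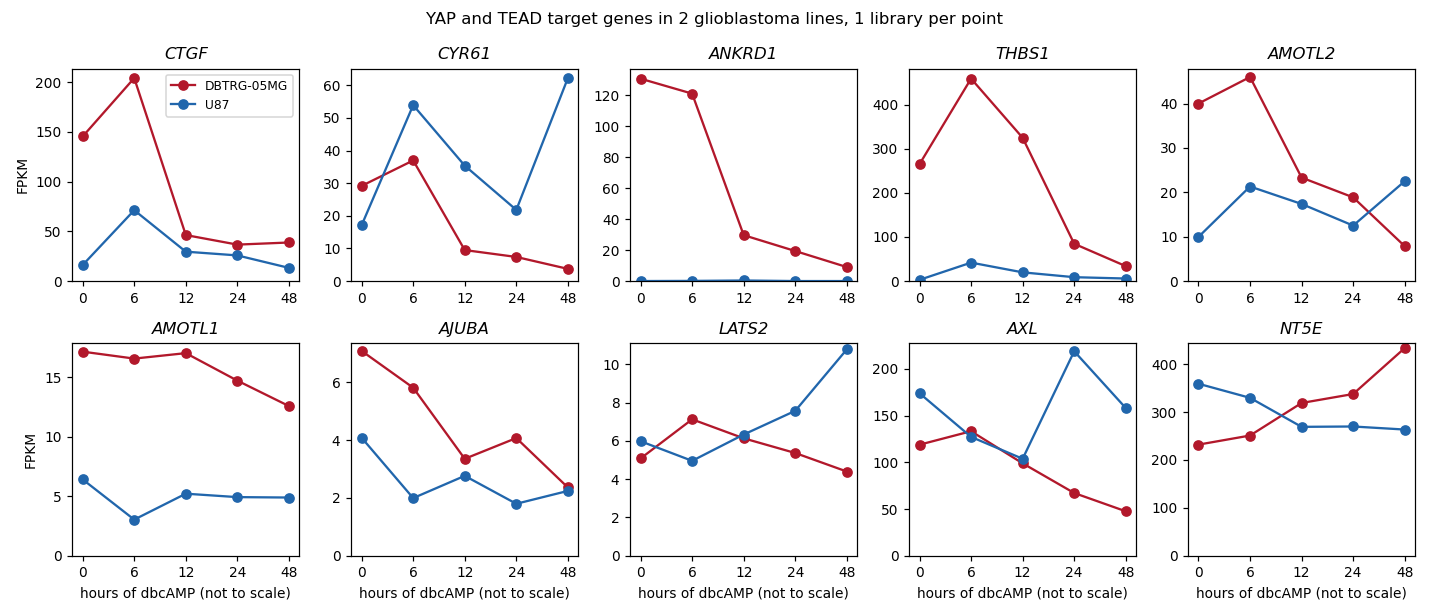
FPKM (vertical axes, linear, from 0, scaled for each gene) of the 10 genes at 0, 6, 12, 24 and 48 h of dbcAMP (horizontal axes, not to scale) in DBTRG-05MG (red) and U87 (blue), each point 1 library with no replicate and so no error bar. CTGF, CYR61, THBS1 and AMOTL2 were above their 0 h level at 6 h in both lines, whereas ANKRD1 was near 0 throughout U87.

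CTGF, a secreted CCN matrix protein and one of the most used readouts of YAP, measured 145, 204, 46.2, 36.6 and 38.8 FPKM in DBTRG-05MG. The 0 and 6 h libraries lay well above the 3 later ones, which were close together. The step from 6 to 12 h was a 4.34-fold lower level, a log2 difference of −2.12, and 8 of the 12352 genes tested had a lower one. In U87 CTGF measured 16.1, 71.2, 29.5, 25.8 and 13.2 FPKM, highest at 6 h and at 48 h below its start. All folds within a line are ratios of FPKM + 1 between single libraries and carry no test. At 48 h CTGF was 3.68-fold lower than at 0 h in DBTRG-05MG, a log2 difference of −1.88, and in U87 the difference was −0.26.

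CYR61, the other CCN protein among the targets, measured 29.2, 37.0, 9.49, 7.38 and 3.73 FPKM in DBTRG-05MG. It followed the order of CTGF up to 24 h and was lower again at 48 h, 6.37-fold under its start. U87 gave 17.1, 53.9, 35.4, 21.8 and 62.2 FPKM. Both the 6 h and the 48 h library of U87 were high, with a lower point at 24 h between them. At 48 h the log2 difference from 0 h was thus −2.67 in DBTRG-05MG and 1.80 in U87, where 50 of the genes tested had a higher one. CTGF and CYR61, which are often read as a pair, stood apart at 48 h in U87, where CTGF was the lowest of its 5 values and CYR61 the highest.

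THBS1, which encodes the matrix glycoprotein thrombospondin 1, measured 265, 459, 325, 84.5 and 33.8 FPKM in DBTRG-05MG. Its largest downward step came 1 sampling time after that of CTGF and CYR61: the step from 12 to 24 h was 3.81-fold lower, and the step from 6 to 12 h had a log2 difference of −0.50. At 48 h it was 7.64-fold lower than at 0 h, with 4 of all genes tested further down. In U87 the values were 2.75, 41.8, 19.7, 8.76 and 5.73 FPKM. The level at 0 h was the lowest of the 5, and each of the later libraries lay above it. The difference from 0 to 6 h in U87, 3.52 on the log2 scale, was exceeded by 6 of the 12352 genes.

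ANKRD1, a nuclear and sarcomeric ankyrin repeat protein that acts as a transcriptional cofactor, measured 131, 121, 29.6, 19.4 and 9.04 FPKM in DBTRG-05MG. The libraries at 0 and 6 h were close, and the other 3 were each lower than the one before. At 48 h ANKRD1 was 13.1-fold lower than at 0 h, a log2 difference of −3.71, and no other gene tested had a lower one in that line. In U87 ANKRD1 was listed at 0 at 0, 24 and 48 h and at 0.0977 and 0.363 FPKM at 6 and 12 h. No library of U87 therefore gave a level that could be compared over time. The gene passed the filter through DBTRG-05MG alone, so its difference between the lines had to be wide and is given below as a description.

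AMOTL2 and AMOTL1 encode motins, junction proteins that hold YAP in the cytoplasm and promote LATS activity. AMOTL2 measured 40.0, 46.0, 23.3, 18.9 and 7.86 FPKM in DBTRG-05MG and 9.94, 21.3, 17.4, 12.5 and 22.5 FPKM in U87. In DBTRG-05MG it was highest at 6 h and 4.63-fold lower at 48 h than at 0 h, and in U87 it was high at 6 and 48 h, as CYR61 was. AMOTL1 measured 17.1, 16.6, 17.0, 14.7 and 12.6 FPKM in DBTRG-05MG and 6.41, 3.03, 5.21, 4.92 and 4.89 FPKM in U87. Its courses were flatter, with a log2 difference at 48 h of −0.42 in DBTRG-05MG and −0.33 in U87.

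AJUBA, a LIM-domain adaptor that binds and inhibits LATS kinases, measured 7.08, 5.81, 3.35, 4.07 and 2.36 FPKM in DBTRG-05MG and 4.08, 1.99, 2.76, 1.80 and 2.24 FPKM in U87. The 0 h library was the highest of its line in both. LATS2, itself a kinase of the pathway and an inhibitor of YAP, measured 5.08, 7.13, 6.14, 5.37 and 4.40 FPKM in DBTRG-05MG and 5.99, 4.96, 6.34, 7.58 and 10.8 FPKM in U87. From 6 h onward LATS2 had a lower value at each later time in DBTRG-05MG and a higher one at each later time in U87.

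AXL, a receptor tyrosine kinase for the ligand GAS6, measured 119, 133, 98.9, 67.1 and 47.6 FPKM in DBTRG-05MG, with the lowest level at 48 h. In U87 it measured 174, 127, 104, 219 and 158 FPKM, and the step from 12 to 24 h was upward by 1.07 on the log2 scale. NT5E, which encodes the ecto-enzyme CD73 that forms adenosine from AMP outside the cell, measured 232, 251, 319, 338 and 434 FPKM in DBTRG-05MG and 359, 329.7, 269, 269.9 and 264 FPKM in U87. All 4 later libraries lay above 0 h in DBTRG-05MG and below it in U87. NT5E was the only one of the 10 genes that was higher at 48 h than at 0 h in DBTRG-05MG, by 0.90 on the log2 scale.

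By size alone, none of the 10 genes was at least 2-fold higher at 6 h in DBTRG-05MG, where 1.17% of all genes were. The number at least 2-fold lower than at 0 h was 3 at 12 h (background 1.61%), 5 at 24 h (background 1.6%) and 7 at 48 h (background 5.16%), and none was 2-fold higher at 48 h (background 4.57%). The 7 at 48 h were CTGF, CYR61, ANKRD1, THBS1, AMOTL2, AJUBA and AXL. The median log2 difference from 0 h over the 10 genes was 0.18, −0.51, −0.93 and −1.59 at 6, 12, 24 and 48 h, beside −0.07, 0.00, 0.05 and 0.02 over all genes tested. Between 6 and 12 h, CTGF, CYR61 and ANKRD1 were at least 2-fold lower (3 of 10, background 0.753%). In bulk RNA, fewer cells with the transcript and less of it per cell cannot be told apart.

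The 4 genes at least 2-fold higher at 6 h in U87 stand beside a background of 2.73% of all genes. The 6 h library was the highest of the 5 for CTGF and THBS1. CTGF and THBS1 were then at least 2-fold lower at 12 h than at 6 h (2 of 10, background 0.785%). None was 2-fold lower than at 0 h at 12, 24 or 48 h, with backgrounds of 2.67%, 4.5% and 4.32%. At 48 h, CYR61 and AMOTL2 were at least 2-fold higher (2 of 10, background 2.14%). The medians over the 10 genes were 0.01, 0.26, 0.30 and −0.07 at the 4 later times, beside −0.01, −0.04, −0.15 and −0.15 over all genes.

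**Figure D2:**
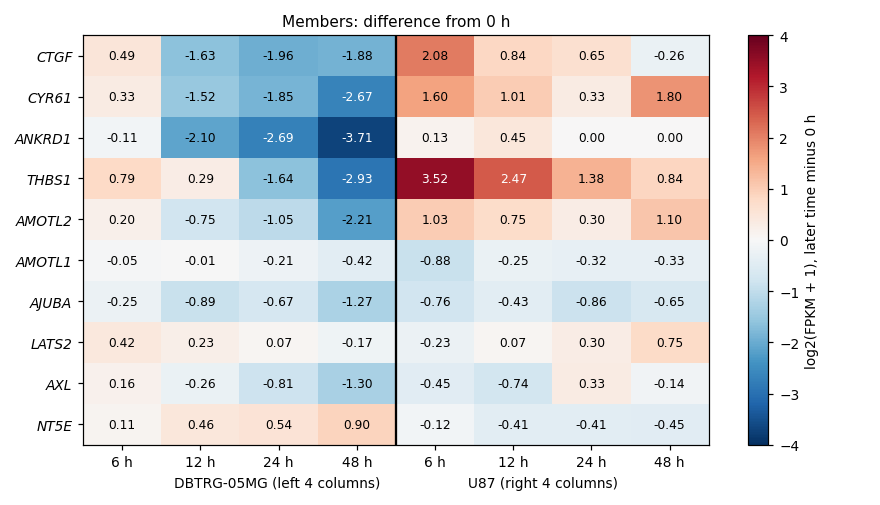
Difference in log2(FPKM + 1) from the 0 h library of the same line for each of the 10 genes (rows) at 6, 12, 24 and 48 h in DBTRG-05MG (left 4 columns) and U87 (right 4 columns), printed in each cell and coloured blue below 0 and red above. In DBTRG-05MG the 48 h values of 9 of 10 genes were below 0 (47.7% of all genes tested), down to −3.71 for ANKRD1. The highest value, 3.52, was that of THBS1 at 6 h in U87.

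The median log2 level of all genes tested was itself 0.10 lower at 6 h in DBTRG-05MG, and 0.22 and 0.24 lower at 24 and 48 h in U87, than at 0 h. Among the differences from 0 h of the 10 genes, centring on that median turned the direction for AXL in U87 at 48 h (from −0.14 to 0.11) and for AMOTL1 in DBTRG-05MG at 6 h (from −0.05 to 0.06), and it put ANKRD1 in U87, listed at 0, above 0. Scaling to the upper quartile turned AMOTL1 at 6 and 12 h in DBTRG-05MG, where its differences were within 0.05, and AXL in U87 at 48 h. The other directions against 0 h were the same under both scalings.

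At 6 h, 4 genes (CTGF, CYR61, AMOTL2 and THBS1) were higher than at 0 h in both lines and 2 (AMOTL1 and AJUBA) lower in both. Of all genes tested, 22.3% and 35.0% were. At 48 h none was higher in both (23.6% of all genes) and 4 (CTGF, AMOTL1, AJUBA and AXL) were lower in both, a share near the 36.0% of all genes. CYR61, AMOTL2, THBS1 and LATS2 were lower in DBTRG-05MG and higher in U87 at 48 h (4 of 10, 10.9% of all genes), and NT5E was the opposite (27.3% of all genes). These comparisons share the 0 h libraries. The plot of both lines at 48 h places CYR61, AMOTL2 and THBS1 in its upper left part, lower in DBTRG-05MG and higher in U87.

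**Figure D3:**
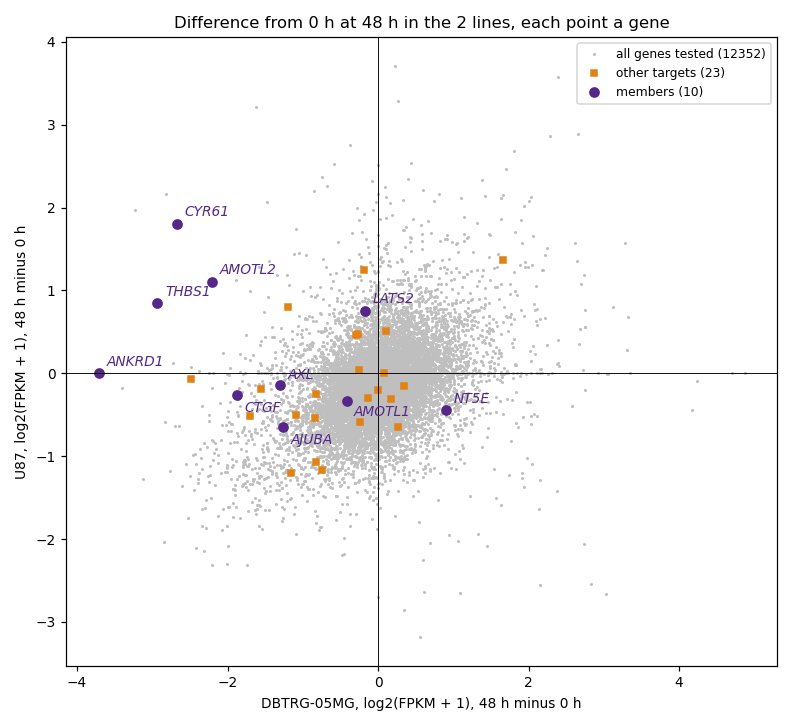
Difference in log2(FPKM + 1) between 48 and 0 h in DBTRG-05MG (horizontal axis) and U87 (vertical axis) for 12352 genes tested (grey), 23 other targets of YAP and TEAD (orange) and the 10 target genes described here (purple, named), each point 1 gene. CYR61 lay at −2.67 and 1.80, AMOTL2 at −2.21 and 1.10, THBS1 at −2.93 and 0.85.

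The test of a change shared by both lines compared each time with 0 h by limma, with cell line as a block. The only spread in it is the disagreement of the lines, with 4 residual degrees of freedom. None of the 10 genes passed a Benjamini-Hochberg adjusted p of 0.05 at any time, where 0.0081% of all genes did at 6, 12 and 24 h and 0% at 48 h. At an unadjusted p under 0.05, 2 of the 10 were higher at 6 h (CTGF and THBS1), none differed at 12 h, 1 was lower at 24 h (AJUBA) and 2 were lower at 48 h (ANKRD1 and AJUBA). Over all genes these counts were 656, 552, 433 and 1512. The smallest adjusted p of limma was 0.772 at 6 h, for THBS1, and 0.251 at 48 h, for AJUBA. Over the 16 alternative settings none of the 10 passed at any time. No other count or array test was run on these values.

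The trend within a line was tested as a slope over the 5 sampling times in order, with 6 residual degrees of freedom. Both lines share 1 estimate of the spread in this fit. The SE of a gene at or near 0 in U87, as ANKRD1 was, therefore rests partly on those values. ANKRD1 fell in DBTRG-05MG by 1.00 on the log2 scale per sampling time (SE 0.10, adjusted p of limma 0.00346) and was the only 1 of the 10 genes to pass, where 1.12% of all genes passed. That call was lost without the 48 h library of DBTRG-05MG (adjusted p 0.0633) and with a pseudocount of 0.1 in place of 1 (0.0902). For the other genes the slopes in DBTRG-05MG did not pass. AMOTL2 had a slope of −0.57 (SE 0.12, adjusted p 0.0506) and CYR61 one of −0.75 (SE 0.17, adjusted p 0.0631). NT5E, the only gene with a positive slope, had 0.22 (SE 0.05, adjusted p 0.081). The slopes of AJUBA, AXL, CTGF and THBS1 were −0.30, −0.36, −0.62 and −0.83, with adjusted p-values of 0.118, 0.122, 0.166 and 0.217, and those of AMOTL1 and LATS2 were −0.10 and −0.07. At an unadjusted p under 0.05, 8 of the 10 stood apart from 0, 7 of them lower, where 17.9% of all genes did in either direction.

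AMOTL2 and CYR61 lay near the threshold in DBTRG-05MG, and settings that leave their slopes nearly the same moved their calls. AMOTL2 passed without the U87 library of 0, 6, 24 or 48 h (adjusted p 0.0307 to 0.0469), with time in hours (0.0233) and with median centring (0.048). CYR61 passed without the U87 library of 6 h (0.0494) or 24 h (0.0319), and NT5E without that of 24 h (0.0422). In U87 none of the 10 slopes passed, where 0% of all genes did. LATS2, with the smallest adjusted p (0.361), was also the only 1 of the 10 at an unadjusted p under 0.05, a share near the 12.5% of all genes.

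The difference in slope between the lines (U87 minus DBTRG-05MG) was tested directly. None of the 10 genes passed, where 0.0162% of all genes did. ANKRD1 had the smallest adjusted p of limma (0.0632), at 0.99 per sampling time (SE 0.14), but its slope in U87 is that of a gene listed at or near 0. Its difference therefore repeats its slope in DBTRG-05MG and is a description. That holds also where it passed, with median centring (0.0466) or without the 6 h library of DBTRG-05MG (0.0392). Next were NT5E at −0.34 (SE 0.08, 0.200), AMOTL2 at 0.71 (SE 0.16, 0.205) and CYR61 at 0.99 (SE 0.24, 0.215). The remaining differences were 0.41 for AXL, 0.27 for LATS2, 0.79 for THBS1, 0.42 for CTGF, 0.16 for AJUBA and 0.09 for AMOTL1. With ANKRD1 left out, CYR61, AMOTL2, LATS2 and AXL had the higher slope in U87 at an unadjusted p under 0.05, and NT5E the lower. Of all genes, 13.4% differed in either direction.

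Over the 5 times, the lines differed in the level of 6 of the 9 genes other than ANKRD1, where 55% of all genes passed the same limma test, so the count is near the background. THBS1 was lower in U87 by 3.81 on the log2 scale (SE 0.44, adjusted p 8.6e-05), AMOTL1 by 1.51 (SE 0.17, 6.9e-05), CTGF by 1.44 (SE 0.33, 0.00524) and AJUBA by 0.60 (SE 0.19, 0.0269). Averaged over the times, CYR61 was higher in U87 by 1.35 (SE 0.51, 0.0472) and AXL by 0.79 (SE 0.28, 0.0406). The average for CYR61 did not hold at the start. At 0 h U87 had the lower CYR61 level (17.1 against 29.2 FPKM), and at each later time it had the higher. The 5 libraries of a line share that line as their source, so they are not independent replicates of it. The p-values for level, here and below, treat them as if they were and describe these libraries only. The fitted value for ANKRD1, −5.20, is not counted and rests on a pseudocount because U87 is at or near 0. AMOTL2 (−0.51), LATS2 (0.27) and NT5E (−0.05) did not pass. The ranges of the 5 libraries were apart between the lines for ANKRD1 and AMOTL1 and overlapped for the other 8. The share of all genes with ranges apart was not computed, so this is a description of these genes only. For ANKRD1 it follows from the filter and the values at or near 0 in U87. The calls for CYR61, AJUBA and AXL were each lost without single libraries: for CYR61 without 12, 24 or 48 h of either line (adjusted p 0.0811 to 0.133), for AJUBA without 0, 6 or 24 h (0.0700 to 0.0858) and for AXL without 0, 24 or 48 h (0.0639 to 0.143). AMOTL2 passed without the 48 h library of either line (0.0134 and 0.0135).

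Likeness of pattern was measured as Pearson's r of log2(FPKM + 1), centred within each line, over the 10 libraries, among 1216 genes with an SD of at least 0.5. The points share lines and times, so r is a description. Of all these genes, the one most like CYR61 was AMOTL2, another of the targets, with r = 0.966. MIR181A2HG, a microRNA host transcript, followed at 0.921 and PLK2, a polo-like kinase, at 0.879. For CTGF the 3 most alike were PRR22 (0.906), ZYX (0.898), which encodes the focal adhesion protein zyxin, and TNFRSF12A (0.885), the receptor of TWEAK. ZYX measured 227, 325, 138, 125 and 133 FPKM in DBTRG-05MG and 201, 294, 275, 317 and 147 FPKM in U87, so its values from 12 h on were low, as those of CTGF were, in the first line, and in the second the 48 h value alone was low. For ANKRD1 they were PDE1C (0.978), HHLA2 (0.971) and the chemokine CCL2 (0.965), all 3 under 1 FPKM in every U87 library, so that r came almost wholly from DBTRG-05MG. CCL2 measured 192, 162, 50.3, 22.7 and 17.2 FPKM there. Among the targets themselves, r was 0.727 between CTGF and CYR61, 0.804 between CTGF and THBS1 and 0.851 between ANKRD1 and CYR61, the last with ANKRD1 at or near 0 in U87. Within the lines, r between CTGF and CYR61 was 0.956 in DBTRG-05MG and 0.273 in U87, and between CTGF and THBS1 0.724 and 0.92. Over both lines, NT5E had r of −0.523 to CTGF, −0.811 to CYR61 and −0.866 to ANKRD1. In DBTRG-05MG alone these were −0.87, −0.968 and −0.986, whereas in U87 NT5E had 0.227 to CTGF and −0.365 to CYR61. AMOTL1 had −0.22 to CTGF over both lines, with 0.616 in DBTRG-05MG and −0.838 in U87.

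A further list of 24 reported targets of YAP and TEAD held 23 genes that passed the filter, all but AREG. At 48 h, 17 of the 23 were lower than at 0 h in DBTRG-05MG (6 at least 2-fold), where 47.7% of all genes were lower and 5.16% at least 2-fold. In U87, 15 of the 23 were lower (3 at least 2-fold), which is near the share of all genes (63.5% lower, 4.32% at least 2-fold). The medians of the 23 were −0.27 and −0.20, beside 0.02 and −0.15 over all genes. EDN1, which encodes the vasoconstrictor peptide endothelin 1, measured 6.28, 13.1, 2.07, 1.49 and 0.302 FPKM in DBTRG-05MG and at most 0.439 FPKM in U87. It was the only 1 of the 23 whose trend in DBTRG-05MG passed: it fell by 0.75 per sampling time (SE 0.14, adjusted p of limma 0.0427), where 1.12% of all genes passed. The low values of U87 enter the spread of that fit, which both lines share. The call was lost without any 1 of the DBTRG-05MG libraries of 12, 24 and 48 h or the U87 libraries of 6 and 12 h (0.0501 to 0.411). None of the 23 passed a shared change, a trend in U87 or a difference of trend, with smallest adjusted p-values of 0.176 (at 48 h), 0.359 and 0.272. In level over the 5 times, 3 of the 23 were higher in U87 (F3, CCDC80 and FSTL1) and 14 lower (MYOF, ASAP1, IGFBP3, CRIM1, FOXF2, GADD45A, DOCK5, ARHGEF17, NUAK2, TGFB2, EDN1, INHBA, CCND1 and SLC7A5), beside the 55% of all genes. Of the 14, FOXF2, EDN1 and INHBA had means under 1 FPKM in U87 and passed the filter through DBTRG-05MG alone. The direction of their differences was therefore fixed by the filter and is a description.

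SLC7A5, a large neutral amino acid transporter, was at least 2-fold higher at 48 h than at 0 h in both lines. It measured 52.3, 156, 165, 208 and 167 FPKM in DBTRG-05MG and 15.1, 55.1, 36.4, 20.0 and 40.6 FPKM in U87, with every later library above 0 h. CCND1, which encodes cyclin D1, measured 389, 541, 300, 216 and 174 FPKM in DBTRG-05MG and 101, 75, 100.1, 81.1 and 43.2 FPKM in U87, lowest at 48 h in both. ARHGAP29, a GTPase-activating protein, was at 4.85 FPKM at 0 h and 2.13 to 3.03 FPKM later in DBTRG-05MG, and at 7.50 and then 2.41 to 3.34 FPKM in U87. F3, which encodes tissue factor, measured 22.1, 16.2, 9.48, 12.6 and 9.13 FPKM in DBTRG-05MG and 15, 99.3, 101, 38.0 and 26.9 FPKM in U87. It was thus lower than at 0 h throughout the first line and higher throughout the second.

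**Figure D4:**
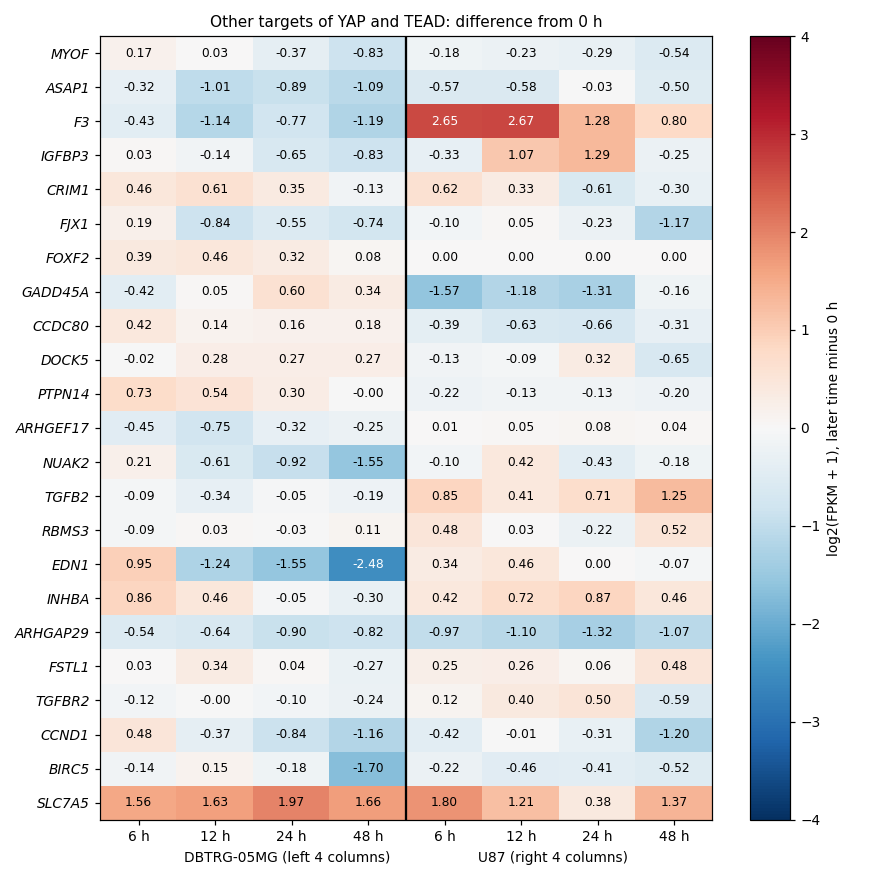
Difference in log2(FPKM + 1) from the 0 h library of the same line for 23 further targets of YAP and TEAD (rows) at 6, 12, 24 and 48 h in DBTRG-05MG (left 4 columns) and U87 (right 4 columns), printed in each cell and coloured blue below 0 and red above. SLC7A5 was above 0 in all 8 columns and ARHGAP29 below 0 in all 8, whereas F3 differed in direction between the lines.

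The 8 tested effectors and cofactors were all within 2-fold of 0 h (on the FPKM + 1 scale) at every time in DBTRG-05MG, whereas in U87 TEAD2 and TEAD3 were at least 2-fold lower at 6 h. YAP1 measured 16.2, 15.6, 19.8, 17.3 and 14.7 FPKM in DBTRG-05MG and 21.8, 18.7, 22.7, 16.7 and 13.5 FPKM in U87. WWTR1 measured 50.8, 49.0, 49.1, 52.6 and 60.7 FPKM in DBTRG-05MG and 11.6, 10.8, 11.1, 14.5 and 6.71 FPKM in U87. TEAD1 was between 25.4 and 39.2 FPKM in DBTRG-05MG and between 19.6 and 36.9 FPKM in U87. TEAD3 was at 9.14 FPKM at 0 h and 2.48 FPKM at 6 h in U87, and TEAD4 ended at 4.06 and 4.6 FPKM from 9.08 and 9.91 FPKM in DBTRG-05MG and U87. None of the 8 passed a change, a trend or a difference of trend, with a smallest adjusted p of 0.191 for a trend in DBTRG-05MG. TEAD2 was at 9.15 FPKM at 0 h and 4.39 to 6.18 FPKM later in DBTRG-05MG and measured 6.11, 2.49, 4.22, 8.72 and 5.70 FPKM in U87, and VGLL3, a cofactor that competes for TEAD proteins, was highest at 6 h in both lines, at 3.85 and 5.26 FPKM. In level, WWTR1 and VGLL4 were lower in U87 and VGLL3 higher, a share of the 8 that is not above the 55% of all genes. RNA levels do not report the phosphorylation or location of YAP, which were not measured here.

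Among 25 tested Hippo kinases and adaptors, NF2 was the only 1 with a trend that passed. NF2 encodes merlin, which brings LATS kinases to the membrane for activation, and it measured 44.9, 43.7, 30.5, 15.9 and 11.9 FPKM in DBTRG-05MG and 10.9, 15.3, 14.3, 18.5 and 13 FPKM in U87. In DBTRG-05MG it fell by 0.51 per sampling time (SE 0.08, adjusted p of limma 0.0236), where 1.12% of all genes passed. The call was lost without any 1 of the DBTRG-05MG libraries of 6, 24 and 48 h or the U87 library of 12 h (0.0504 to 0.268), and with a pseudocount of 0.1 (0.0705). MAP4K2, TAOK3 and MAP4K5, kinases that can act on LATS beside MST1 and MST2, were below their 0 h level in both lines at 6 h. TAOK3 and MAP4K5 were so at 48 h as well. Of the 25 genes, 9 were lower in both lines at 6 h, near the 35.0% of all genes, and 16 at 48 h, beside 36.0% of all genes. TAOK3 measured 22.0, 11.9, 14.0, 17.5 and 16.7 FPKM in DBTRG-05MG and 21.6, 14.8, 15.4, 21.6 and 13.5 FPKM in U87. In level, 3 of the 25 were higher in U87 (STK4, MAP4K4 and FRMD6) and 10 lower (STK3, LATS1, MOB1A, MAP4K2, MAP4K3, TNIK, NF2, WWC1, WWC2 and WWC3), a share near the 55% of all genes. TNIK and WWC1 had means of 0.765 and 0.018 FPKM in U87 and passed the filter through DBTRG-05MG alone. The direction of their differences was therefore fixed by the filter. None of 17 junction and polarity regulators passed a change or a trend. LLGL1, a polarity protein, was at 23.3 FPKM at 0 h and 14.1 FPKM at 6 and 12 h in U87.

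Within the families of the targets, CTGF and CYR61 were the CCN genes with substantial levels in both lines. NOV was at most 0.169 FPKM in DBTRG-05MG, ranged from 7.50 to 18.3 FPKM over the U87 libraries, and the other 3 CCN genes did not pass the filter. THBS2, a relative of THBS1, was at 15.4 to 18.4 FPKM up to 24 h and 25.4 FPKM at 48 h in DBTRG-05MG, where THBS1 was lowest. GAS6, the ligand of AXL, was at 37.8 to 61.9 FPKM in DBTRG-05MG and at most 0.405 FPKM in U87, the line with the higher AXL level. MERTK, a receptor related to AXL, was at 4.85 FPKM at 0 h and 10.1 FPKM at 48 h in DBTRG-05MG, while AXL was lower at 48 h. ADORA2A, a receptor for the adenosine that CD73 forms, was at most 3.04 FPKM in any library. None of these relatives passed a change or a trend, with smallest adjusted p-values in DBTRG-05MG of 0.101 among the receptors of the AXL family and their ligands and 0.081, for NT5E, among the adenosine genes.

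The targets of SRF, another transcription factor that reads the state of actin, had 6 tested genes. At 6 h, 5 of these 6 were higher than at 0 h in both lines, where 22.3% of all genes were. Between 6 and 12 h all 6 were lower in DBTRG-05MG, where 40.3% of all genes were. TAGLN, which encodes transgelin, measured 9.56, 26.1, 17.0, 10.1 and 2.58 FPKM in DBTRG-05MG, and TPM1, a tropomyosin, measured 76.4, 129, 99.1, 33.8 and 23.8 FPKM. Both peaked at 6 h and were lowest at 48 h in that line, as THBS1 was. The other tested targets of SRF did not share both features there. ACTA2 was highest at 0 h (43.8 FPKM) and CNN1 was lowest at 0 h (0.711 FPKM). In U87 TAGLN was lowest at 0 h (1.59 FPKM) and highest at 12 h (5.79 FPKM), and TPM1 was lowest at 24 h (71.5 FPKM). None of the 6 passed a test of change or trend.

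Whether the lines kept their labelled identity was read from marker genes. VIM (at least 865 FPKM), NES, EGFR and CD44 were present in both lines, whereas GFAP was at most 0.508 FPKM in any library, and S100B and SOX2 were listed at 0 in all U87 libraries. The summed markers of macrophages, endothelium and epithelium were each at most 3.29 FPKM in any library. Neuron markers summed to 11.7 to 17.3 FPKM over both lines, and oligodendrocyte markers to 8.70 to 14.3 FPKM in DBTRG-05MG, mostly MBP, and at most 2.47 FPKM in U87. Those of fibroblasts summed to between 5.10 and 9.82 FPKM in the libraries of DBTRG-05MG and between 181 and 326 FPKM in those of U87, and the part of these marker genes in the level of the targets was not tested. The cyclic AMP response genes checked, 7 in all, were each above 0 h in both lines at 6 h, where 22.3% of all genes were. None of the 7 passed a test of change or trend, with a smallest adjusted p of limma of 0.107, at 48 h. The division marker MKI67 was at 79.9 FPKM at 0 h and 10.3 at 48 h in DBTRG-05MG, and at 53.7 and 12.3 in U87. Its part in the late levels of the targets was not tested. Relative depth was 100% to 117% of the first library. The noncoding RNA BCYRN1 took 0.578% to 3.37% of the FPKM total in DBTRG-05MG and 7.38% to 13.3% in U87, and its part in the differences between the lines was not tested.

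The genes lie on GRCh38 (GENCODE release 29) at chr6:131948176-131951373 for CTGF, chr1:85580761-85583962 for CYR61, chr10:90912096-90921276 for ANKRD1 and chr15:39581079-39599466 for THBS1. AMOTL1 lies at chr11:94706431-94876753, AMOTL2 at chr3:134355874-134375479, AJUBA at chr14:22971174-22982642, LATS2 at chr13:20973032-21061547, AXL at chr19:41219203-41261766 and NT5E at chr6:85449584-85495791. All 10 are protein-coding. Exons of 6 of them overlap those of another annotated gene: an antisense gene for CTGF, AMOTL1, THBS1 and AXL, a processed pseudogene for AMOTL2 and a protein-coding gene on the same strand for AJUBA. THBS1 exons also overlap those of FSIP1, a protein-coding gene on the opposite strand that is itself in the expression table. Whether the counting used strand is not given in the sources used here, so their values may hold some reads of those neighbours.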

How the data were processed

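Poly(A) RNA sequencing of 10 libraries was used. The deposited values were read as FPKM, a unit inferred from their steps at low levels because the labels do not state it; the submitters' processing notes name HISAT, Bowtie2, RSEM and hg38 and give no versions. Entries of 0.002 were read as 0. The labels' dose and times were followed, where the series design text differs in dose unit and duration. Read depth is known only relative to the first library, so no counting interval is given, and a value of 0 means not detectable at this depth.

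The log2(FPKM + 1) values of the 12352 genes whose mean reached 1 FPKM were fitted in limma 3.58.1 (R 4.3.3), moderated by its empirical Bayes step (mean-variance trend on), with Benjamini-Hochberg adjusted p-values and a threshold of 0.05. Time as a factor with cell line as the replicate block gave changes and line differences, and the product of line and rank of time gave trends. The pairing comes from the cell line itself. With 1 library per line and time, p-values measure the disagreement of the lines or the scatter around a straight trend (median SD 0.271 and 0.260 on the log2 scale). Fits were tested on simulated data. The alternatives were a pseudocount of 0.1, no filter, median centring, upper quartile scaling, no mean-variance trend, no block, time in hours, and leaving out each library.

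The members and lists were chosen with earlier results of these data known. Genes named besides the 10 were, of each list, those past the threshold and up to 4 with the largest mean change from 0 h; those past the threshold for level alone are given by count where a list is not one of the pathway's. A few of these are not reported here. YAP1, TEAD1 and ADORA2B fall outside that rule and were named after their values were seen. Promoter sequences are from RefSeq and coordinates from GENCODE release 29.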

Additional observations from a re-analysis of the deposited data

Results flagged for a closer look

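NT5E, which encodes CD73, stood on opposite sides of its starting level in the lines: all 4 later libraries lay above 0 h in DBTRG-05MG and all 4 lay below it in U87. The test of the difference in slope itself (U87 minus DBTRG-05MG, −0.34 per sampling time on the log2 scale, SE 0.08) did not pass, with an adjusted p of limma of 0.200 over all genes.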

How the results depend on the processing

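Each value was recomputed under every alternative that applied to it. Of 350 values with 1 library left out, 305 kept their direction and side of the threshold, 28 lost the call, 10 gained it and 7 changed direction; of 200 values under other settings the numbers were 187, 9, 3 and 1. The causes were not tested. The count of all genes past the threshold at 6 h was 1, and it was 3 with a pseudocount of 0.1, 0 with no filter, with median centring or without the replicate block, and 0 to 2 without single libraries. At 12 h the count of 1 became 3, 3, 0 and 0 in the same order, and 0 to 3 without single libraries; at 24 h it became 2, 2, 0 and 0, and 0 to 3. At 48 h it was 0 with a range of 0 to 2. No member's call depended on the block. For the difference in trend the count of 2 was 1 with a pseudocount of 0.1, 5 with no filter, 7 with median centring, 14 with time in hours, and 1 to 67 without single libraries (67 without U87 at 0 h). The 138 genes with a trend in DBTRG-05MG became 11 with a pseudocount of 0.1, 239 with no filter, 372 with time in hours, and 2 to 339 without single libraries (2 without DBTRG-05MG at 48 h). For U87 the count of 0 became 1 with no filter, 2 with median centring, and 0 to 450 without single libraries (450 without 0 h). The line difference of NT5E, which did not pass, was 0.21 with median centring and −0.22 to 0.11 without single libraries. Without single libraries the difference in trend ranged from −0.10 to 0.69 for CTGF and from −0.0802 to 1.27 for THBS1, the lowest without U87 at 0 h, and the trend of LATS2 in DBTRG-05MG from −0.19 to 0.001031.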
